A study of Mus musculus with 3 samples.

Results

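The genes that encode the subunits, activators and assembly factors of the proteasome were followed across 3 culture media in stimulated mouse CD4 T cells. Members were the rows whose gene symbol reads Psm, then 1 letter from a to g, then a number, and 48 of the 23282 rows of the deposited tables met this rule. They comprise 7 genes of the alpha ring (Psma1 to Psma7), 7 of the constitutive beta ring (Psmb1 to Psmb7), 6 regulatory-particle ATPases (Psmc), 11 other regulatory-particle subunits (Psmd), 5 immunoproteasome genes (Psmb8, Psmb9, Psmb10, Psme1 and Psme2), 3 other activators and inhibitors (Psme3, Psme4 and Psmf1), 7 assembly chaperones (Psmd5, Psmd9, Psmd10 and Psmg1 to Psmg4), and the tissue-restricted core subunits Psma8 of testis and Psmb11 of thymic cortex. The first 4 classes, 31 genes in all, are called the constitutive subunits here.

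The proteasome degrades proteins that carry ubiquitin chains. Its core is a barrel of alpha and beta rings with the proteolytic sites inside the beta rings, and its regulatory particle binds the ubiquitin chain, removes it, and unfolds the substrate with a ring of ATPases. Under interferon gamma, and at a high basal level in lymphocytes, the catalytic subunits encoded by Psmb6, Psmb7 and Psmb5 are exchanged for those encoded by Psmb9, Psmb10 and Psmb8, and the resulting immunoproteasome, with the activator PA28 made from Psme1 and Psme2, favours the production of peptides for MHC class I.

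Isolated CD4 T cells of C57BL/6 mice (C57BL/6J in the study's methods), taken from lymph nodes and spleen, were stimulated with antibodies to CD3 and CD28, each medium being used for 72 hours. Complete medium (CM) was RPMI-1640 with 10% FBS. Dialyzed medium (DM) was, per the study's methods, RPMI without amino acids, with FBS dialyzed to remove small molecules. It thus differed from CM in all amino acids and in other small serum components. The study reports that DM still held measurable methionine, so DM was not free of it. DM+Met was DM with methionine added at 30 µM. Each medium had 2 libraries made with a 3′ tag kit, and these are treated as replicates, although the labels do not say what separates the 2 files of a medium. The study's figure legends call the sequenced samples biologically independent. All p-values measure the spread between these libraries. The labels name no transgene or deletion.

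Recovered reads per library ranged from 8504735 to 12377297, and the values are log2(CPM + 1), where CPM is the count scaled to a common library size after TMM normalisation. A 3′ tag library gives 1 tag per transcript whatever its length, so levels are comparable between genes to the extent that each 3′ end is captured alike. The ribosomal RNA precursor row Rn45s held 31.0% to 38.3% of reads in CM and DM and 15.5% and 20.1% in DM+Met. The TMM factor was 1.16 and 1.22 in the DM+Met libraries and 0.897 to 0.938 in the other 4. The CD4 T cell markers Cd3d, Cd3e, Cd3g, Cd4 and Lck summed to 1048 to 1288 CPM in every library. Markers of CD8 T and NK cells summed to 73.5 and 77.2 CPM in CM and to 30.6 to 39.4 CPM in the other media. Markers of B cells summed to 57.6 to 95.3 CPM. The 15 myeloid markers summed to 30.4 and 45.6 CPM in CM and to 174 to 241 CPM in DM and DM+Met. Mmp12 was at 109 and 73.1 CPM in DM and 7.17 and 0 CPM in CM. Lpl, at 34.9 and 31.5 CPM in DM, and Ccl17, at 26.8 and 24.5 CPM, were also higher than in CM. Together Mmp12, Lpl and Ccl17 made up most of the myeloid sum in each DM and DM+Met library. In DM 12 of the 15 fitted changes were positive and 3, those of C1qa, C1qb and C1qc, negative. All defining markers of these lists were read in at least 1 library, none was a member, and their part in the results was not tested.

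Of the 31 constitutive subunit genes, 10 were lower in DM than in CM and 6 were lower in DM+Met, with adjusted p-values from limma under 0.05 (9.07% and 8.36% of all rows tested), and 0 were higher in either. Both libraries of a dialyzed medium lay below both CM libraries for 23 of the 31 in DM and 21 in DM+Met (26.2% and 28.7% of all rows). Summed over the 31 genes, the level was 4470 and 4661 CPM in the CM libraries and 3142 and 2976 CPM in DM, with DM+Met at 3401 and 3142 CPM, so that all 4 dialyzed-medium libraries lay below both CM libraries. The 5 immunoproteasome genes summed to 1020 and 928 CPM in CM and 666 and 772 CPM in DM, with DM+Met at 914 and 824 CPM, again without overlap with CM but with DM+Met nearer to it. All 48 members together summed to 5808 and 5951 CPM in CM and 4137 and 4072 CPM in DM, with DM+Met at 4659 and 4275 CPM. These sums are of TMM-scaled values, and the order of DM+Met and CM in them depends on that scaling. On library totals, the median change in DM+Met against CM was -0.09 over the constitutive subunits and 0.26 over the immunoproteasome genes. The median of all rows was 0.41 there. In bulk RNA, fewer cells of a type and less RNA per cell cannot be told apart.

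Of the 48 members, 47 passed the filter on low reads. Psma8, the testis alpha subunit, had 0 reads in all 6 libraries and was not tested. Psmb11, the catalytic subunit of the thymoproteasome, had 7 to 23 reads per library and a mean level of 1.12 in CM and 1.29 in DM, with DM+Met at 0.99 on the log2 scale, and the libraries of the 3 media overlapped. The other 46 members were read at least 90 times in every library. Psmb8 had the highest level of all members in 5 of 6 libraries, and the assembly chaperones, at mean levels of 3.91 to 5.41 in CM, lay toward the bottom of the range. The SD between the 2 libraries of a medium had a median over the 47 members of 0.17 for CM, 0.237 for DM and 0.152 for DM+Met on the log2 scale, and was widest at 1.15 for Psmg2 in DM+Met. The plot of levels by library shows both CM libraries above both DM libraries for 6 of 7 alpha genes and 5 of 7 constitutive beta genes. The same held for 9 of 11 Psmd subunits and 3 of 6 Psmc ATPases, against 26.2% of all rows tested.

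**Figure D1:**
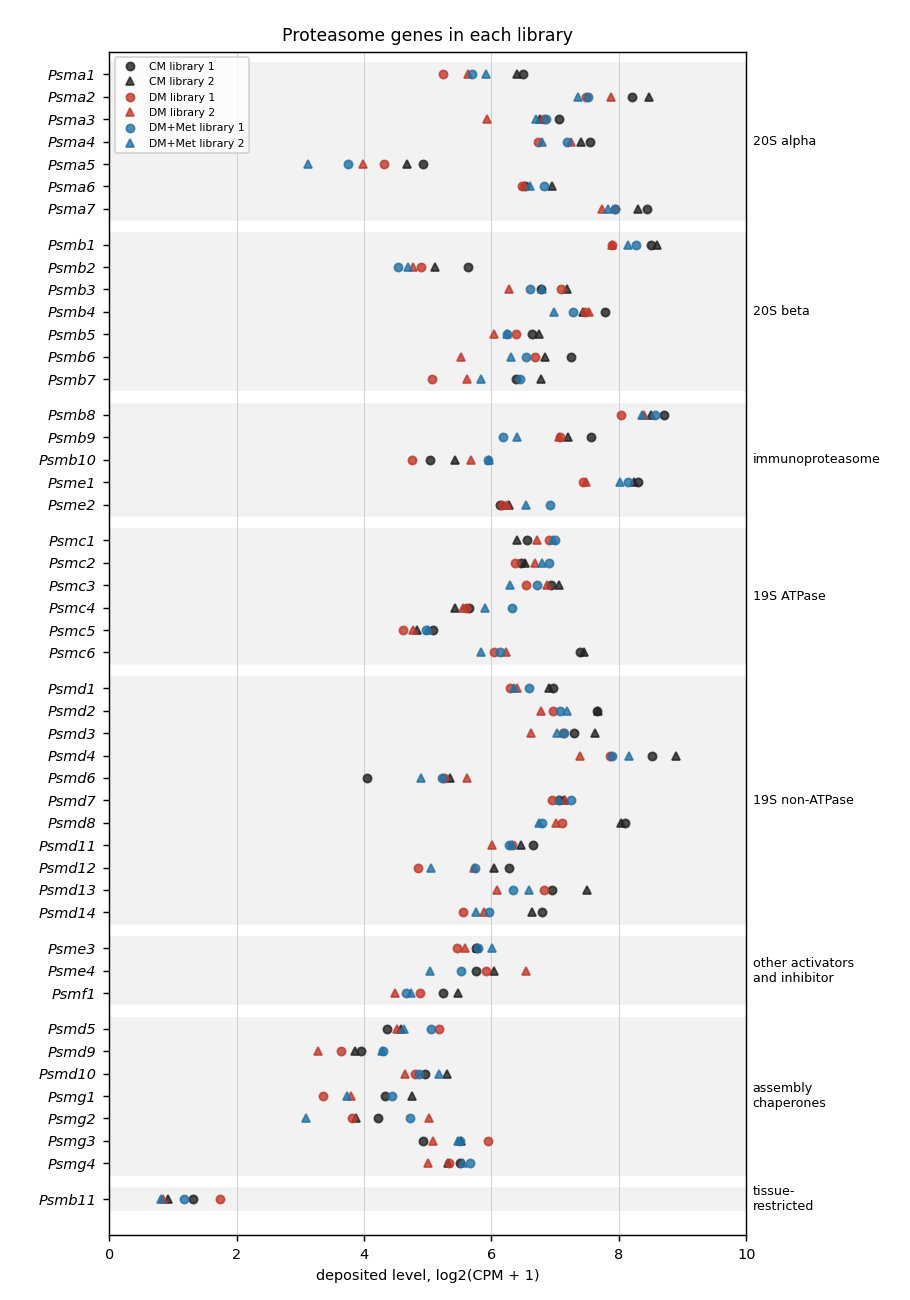
Level of each of the 47 tested proteasome genes in each library, on the deposited log2(CPM + 1) scale, grouped by role. Circles are library 1 and triangles library 2 of each medium, with CM black, DM red and DM+Met blue. For Psmc6 and Psmd8 both CM libraries lie to the right of all 4 others, and Psmb11 lies below all other members.

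The first comparison, DM against CM, asks what the reduction of amino acids and other dialyzable components did to these genes. With limma's moderated test on the log2 values and Benjamini-Hochberg adjustment over all 12770 rows tested, 11 of 47 members were lower in DM, a share of 23.4% against 9.07% of all rows, and 0 were higher, against 7.8% of all rows. At an unadjusted p under 0.05 there were 21 lower and 0 higher, against 2039 and 2131 of the 12770 rows. The limma-voom calls were 11 lower and 0 higher, against 996 and 587 of all rows. Both DM libraries of 31 members, these 11 included, lay below both CM libraries (66% of members, against 26.2% of all rows), and those of 1 member lay above (27.9% of all rows), namely the ATPase gene Psmc1 at 6.90 and 6.72 in DM and 6.56 and 6.41 in CM. The median log2 change was -0.55 over the constitutive subunits, -0.31 over the immunoproteasome genes and 0.07 over all rows tested. The immunoproteasome median was -0.20 without CM library 1, -0.49 without CM library 2, -0.21 without DM library 1, -0.47 without DM library 2 and -0.15 on library totals that leave out Rn45s. With 1 library left out, 2 to 6 members were lower, against 2.05% to 4.68% of all rows: 2 without CM library 1, 3 without CM library 2, 5 without DM library 1 and 6 without DM library 2.

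The second comparison, DM+Met against CM, shares the CM libraries with the first. Here 7 of 47 members were lower (14.9%, against 8.36% of all rows) and 0 were higher (6.92% of all rows). At an unadjusted p under 0.05 there were 19 lower and 4 higher, against 1918 and 1952 of the 12770 rows. The limma-voom calls were 9 lower and 0 higher, against 1060 and 677 of all rows. The libraries of 25 members did not overlap on the lower side (53.2%, against 28.7% of all rows) and those of 9 on the higher side (19.1%, against 32.2% of all rows). The median change was -0.48 over the constitutive subunits and -0.14 over the immunoproteasome genes, against 0.06 over all rows. The immunoproteasome median was -0.03 without CM library 1 and without DM+Met library 2, -0.22 without CM library 2, -0.24 without DM+Met library 1 and -0.01 on totals that leave out Rn45s. This comparison depends on how the libraries are scaled. With CPM on library totals, the median of all rows was 0.41, 3 members were lower (Psmb9, Psmc6 and Psmd8, against 5.02% of all rows) and 5 were higher (Psmb10, Psmc1, Psmc2, Psmc4 and Psme2, against 16.1% of all rows). On that scale the constitutive subunits had a median change of -0.09 and the immunoproteasome genes of 0.26, both below the median of all rows. With totals that leave out Rn45s, 5 members were lower and 1, Psmc1, was higher. Leaving out 1 library left 1 to 3 members lower, against 1.48% to 3.23% of all rows: 2 without CM library 1, 3 without CM library 2, 2 without DM+Met library 1 and 1, Psmd8, without DM+Met library 2.

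**Figure D2:**
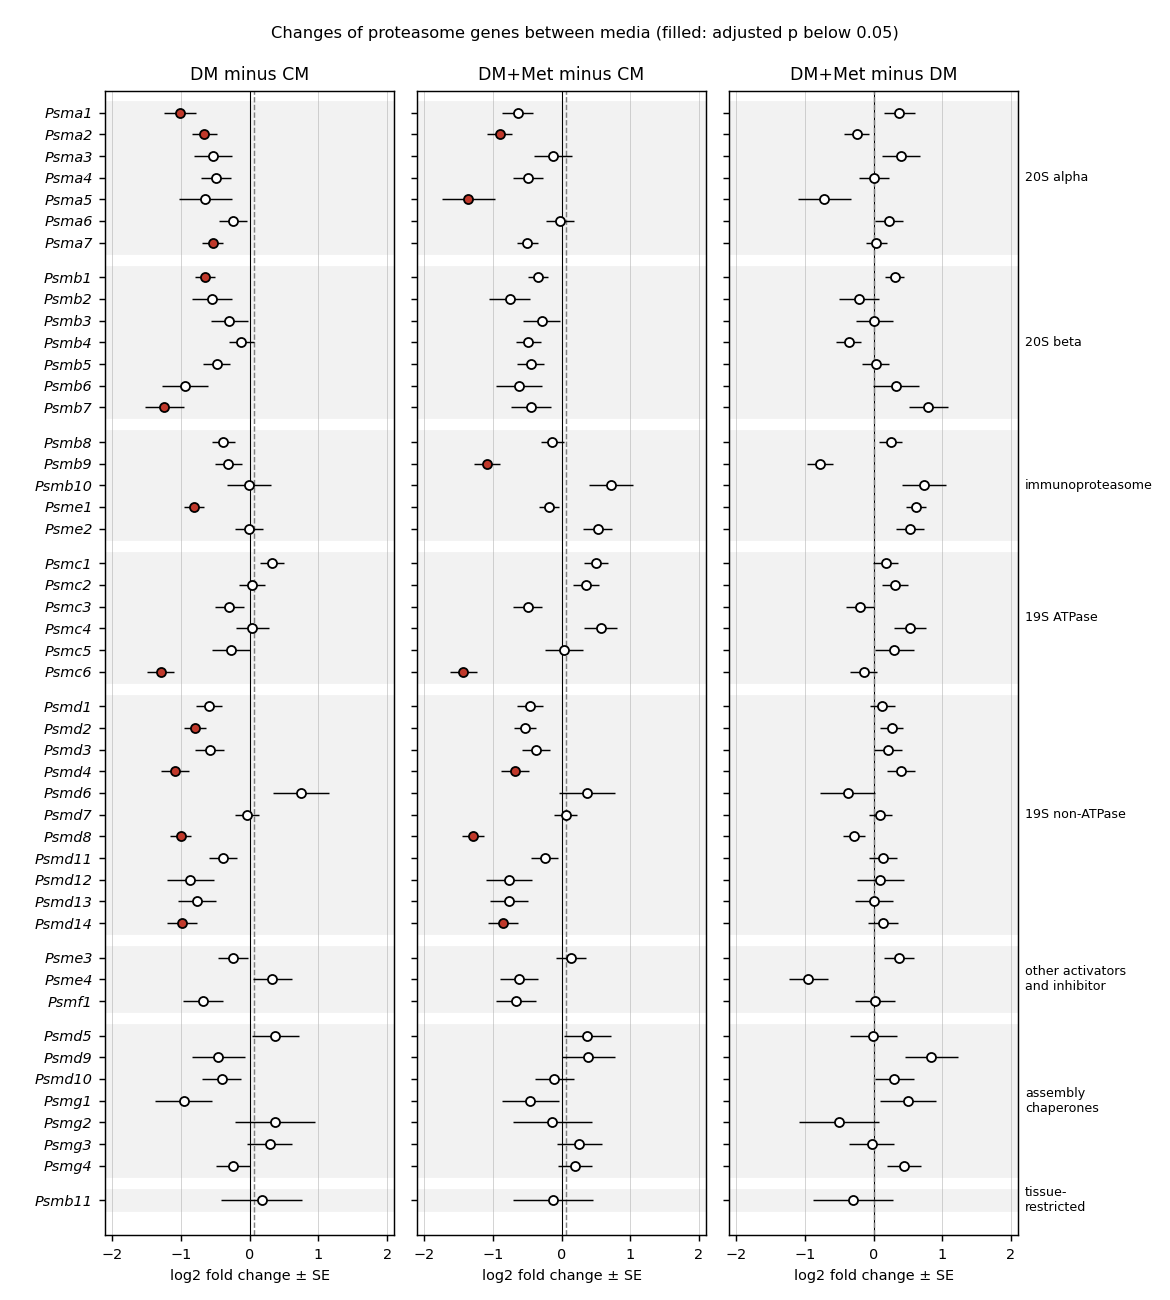
Fitted log2 fold change and its standard error for each tested member in the 3 comparisons, grouped by role. Filled points passed an adjusted p of 0.05, the solid line marks 0 and the dashed line the median of all rows tested. The 11 filled points of DM minus CM and the 7 of DM+Met minus CM all lie below 0, and DM+Met minus DM has none.

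Psma2, Psmc6, Psmd4, Psmd8 and Psmd14 were lower in both dialyzed media. They encode an alpha-ring subunit, an ATPase, the ubiquitin receptor Rpn10, the structural subunit Rpn12 and the deubiquitinase Rpn11, in this order. The DNA just upstream of their start sites is given from RefSeq's promoter windows of GRCm38.p6, since these 5 members were called lower in both comparisons with CM. Each sequence reads 5′ to 3′ on the strand of the gene, covers only bases outside annotated exons, and lies at chr13:14613166-14613239 on the + strand for Psma2, chr14:45329574-45329787 on the + strand for Psmc6, chr3:95042615-95042864 on the - strand for Psmd4, chr7:29180702-29180923 on the - strand for Psmd8 and chr2:61711444-61711693 on the + strand for Psmd14. Capitals mark matches, on either strand, to 5 motifs: the antioxidant response element core TGACNNNGC, which NFE2L1 and NFE2L2 bind, the interferon-stimulated response element (GAAA, any 2 bases, then GAAA), the gamma-activated site TTCNNNGAA, the CCAAT box and the GC box GGGCGG. None of the marked matches overlapped another.
Psma2: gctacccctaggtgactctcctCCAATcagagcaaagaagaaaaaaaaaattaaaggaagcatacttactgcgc
Psmc6: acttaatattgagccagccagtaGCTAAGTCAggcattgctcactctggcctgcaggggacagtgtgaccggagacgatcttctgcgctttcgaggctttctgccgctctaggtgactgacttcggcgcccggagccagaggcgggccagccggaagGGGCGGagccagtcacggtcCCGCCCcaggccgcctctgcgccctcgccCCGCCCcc
Psmd4: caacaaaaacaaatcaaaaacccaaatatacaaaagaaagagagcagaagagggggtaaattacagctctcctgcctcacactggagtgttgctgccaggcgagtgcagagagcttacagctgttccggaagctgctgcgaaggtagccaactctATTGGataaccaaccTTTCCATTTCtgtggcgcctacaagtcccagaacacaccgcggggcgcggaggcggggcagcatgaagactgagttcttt
Psmd8: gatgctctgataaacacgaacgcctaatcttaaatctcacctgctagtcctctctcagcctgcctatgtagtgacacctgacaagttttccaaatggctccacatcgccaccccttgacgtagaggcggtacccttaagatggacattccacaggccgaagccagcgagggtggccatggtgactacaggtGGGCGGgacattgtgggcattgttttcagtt
Psmd14: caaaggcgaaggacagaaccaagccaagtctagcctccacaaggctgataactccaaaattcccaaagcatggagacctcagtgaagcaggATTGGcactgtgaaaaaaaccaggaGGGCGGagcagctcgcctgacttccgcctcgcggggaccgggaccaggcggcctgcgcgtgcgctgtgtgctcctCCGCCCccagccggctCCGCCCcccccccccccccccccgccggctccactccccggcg

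Psmc6 held the only antioxidant response element core among the printed stretches, with 3 GC boxes, and Psmd4 held the only interferon-stimulated response element. Psmd14 had 3 GC boxes and 1 CCAAT box, Psmd8 had 1 GC box and Psma2 had 1 CCAAT box. The printed stretches differ in length, from 74 bases for Psma2 to 250 for Psmd4 and Psmd14. The full 250-base window of Psma2 also held a GC box. Over the 250 bases before the start site, 43 RefSeq windows matched 40 of the 48 members. The antioxidant response element core was in 5 of these 43 windows (Psmb5, Psmb6, Psmc6, Psmd9 and Psmd12) and in 10.2% of all 32851 windows. The interferon-stimulated response element was in 3 (Psmb3, Psmd4 and Psmd9) and in 2.98% of all windows, and the gamma-activated site was in 2 (Psmb8 and Psmg1) and in 7.02% of all windows. The CCAAT box was in 14 member windows and 33.9% of all windows, and the GC box in 23 and 32.7%. A match describes the letters of these windows only.

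In the alpha ring, which forms the gate of the core, 3 of 7 genes were lower in DM and 2 of 7 in DM+Met. Of all rows, 9.07% and 8.36% were. All 7 fitted changes against CM were negative in both media, against 47.2% and 46.4% of all rows. Psma2 stood at 8.21 and 8.47 in CM and 7.48 and 7.88 in DM, with DM+Met at 7.51 and 7.37. The CM libraries were the highest and the DM and DM+Met libraries overlapped one another. By limma, its log2 change was -0.66 ± 0.18 (SE; adjusted p = 0.0341, kept in 7 of 15 alternatives) in DM and -0.90 ± 0.18 (adjusted p = 0.00953) in DM+Met. Psma1 was at 6.49 and 6.40 in CM and 5.24 and 5.63 in DM, with DM+Met at 5.70 and 5.92. DM was lowest, with DM+Met between DM and CM, and the change passed in DM at -1.01 ± 0.23 (limma, adjusted p = 0.0163) and not in DM+Met at -0.64 ± 0.23 (adjusted p = 0.0908). Psma7, the alpha gene with the highest mean level in CM, was at 8.45 and 8.31 in CM and at 7.74 to 7.95 in the other 4 libraries, with a change of -0.54 ± 0.15 in DM (limma, adjusted p = 0.0396, a call kept in 5 of 15 alternatives) and -0.50 ± 0.15 in DM+Met (adjusted p = 0.0549).

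Psma5 was the alpha gene with the lowest level. It was at 4.93 and 4.67 in CM and 4.32 and 3.99 in DM, with DM+Met at 3.75 and 3.13, so that the 3 media were in separate order without overlap. The limma change was -1.36 ± 0.39 in DM+Met (adjusted p = 0.0421, a call kept in 5 of 15 alternatives) and -0.65 ± 0.39 in DM (adjusted p = 0.282). The alpha genes Psma3, Psma4 and Psma6, which no comparison called, had changes of -0.24 to -0.53 in DM and -0.02 to -0.49 in DM+Met.

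In the constitutive beta ring, 2 of 7 genes were lower in DM and 0 in DM+Met, against 9.07% and 8.36% of all rows. In DM+Met the lowest adjusted p by limma was 0.109 and limma-voom called 0. There, 4 genes were lower at an unadjusted p under 0.05, against 1918 of the 12770 rows. Psmb7, which carries the trypsin-like site, was at 6.39 and 6.79 in CM and 5.07 and 5.62 in DM, with DM+Met at 6.45 and 5.84. DM was the lowest medium, and DM+Met overlapped CM. Its change in DM, -1.24 ± 0.29 (limma, adjusted p = 0.0174), was the second most negative of all members, and in DM+Met it was -0.45 ± 0.29 (adjusted p = 0.332). Psmb7 is at chr2:38588036-38644087 on the - strand, and its 3′ end lies within the span of Nek6 on the opposite strand. The 3′ end of Nek6 itself, at 38594606, lies elsewhere. The Nek6 row had 80 to 271 reads per library against 320 to 1032 for Psmb7. Whether the counting used strand is not given in the sources used here.

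Psmb1, a non-catalytic beta subunit and one of the most abundant members, was at 8.50 and 8.60 in CM, 7.90 in both DM libraries, and 8.28 and 8.14 in DM+Met. The 3 media did not overlap, with DM lowest, and the change was -0.65 ± 0.14 in DM (limma, adjusted p = 0.0145) and -0.34 ± 0.14 in DM+Met (adjusted p = 0.137). Psmb6, which carries the caspase-like site, was at 7.24 and 6.84 in CM and 6.69 and 5.52 in DM, with DM+Met at 6.55 and 6.30. CM was highest without overlap, but the DM libraries differed by more than 1 unit, and the change of -0.94 ± 0.33 did not pass (limma, adjusted p = 0.0829). It passed in 3 of 15 alternatives, and with 1 library left out it ran from -1.52 without DM library 1, which passed, to -0.35 without DM library 2, which did not. Psmb5, which carries the chymotrypsin-like site, was at 6.64 and 6.74 in CM, 6.38 and 6.04 in DM, and 6.24 in both DM+Met libraries, with changes of -0.48 ± 0.20 in DM (limma, adjusted p = 0.126) and -0.45 ± 0.20 in DM+Met (adjusted p = 0.161). Psmb2, Psmb3 and Psmb4 had changes of -0.12 to -0.55 in DM and -0.29 to -0.76 in DM+Met, none of which passed.

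The 5 immunoproteasome genes differed from one another in their changes. All 5 fitted changes were negative in DM (47.2% of all rows), 3 without overlap (26.2%), and 1 gene, Psme1, passed (9.07%). Those of Psmb10 (-0.01 ± 0.32) and Psme2 (-0.01 ± 0.20) were far smaller than their standard errors. Their signs turned in 5 and 4 of 15 alternatives. In DM+Met 1 gene, Psmb9, passed on the lower side (8.36% of all rows). Psmb10 and Psme2 lay above CM without overlap (32.2% of all rows), and Psmb8 and Psme1 were nearest to it. With library totals, Psmb10 and Psme2 were higher in DM+Met than in CM. The summed level of the 5 genes was 18.6% and 16.6% of the immunoproteasome and constitutive sum in CM and 17.5% and 20.6% in DM, with DM+Met at 21.2% and 20.8%. These shares do not depend on the scaling, and the DM+Met libraries lay above both CM libraries while the DM libraries overlapped them. An exact permutation test of 2 against 2 libraries cannot give a two-sided p under 0.33.

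Psmb9 and Psmb8 lie in the MHC region at chr17:34181987-34187764 (- strand) and chr17:34197721-34201454 (+ strand), with the peptide transporter gene Tap1 between them at chr17:34187553-34197225 (+ strand), and the 5′ ends of the Psmb9 and Tap1 gene models overlap head to head. Psmb9 was at 7.56 and 7.20 in CM and 7.08 and 7.07 in DM, with DM+Met at 6.18 and 6.41. The 3 media did not overlap, and DM+Met was the lowest. The limma change was -1.09 ± 0.19 in DM+Met against CM (adjusted p = 0.00488), -0.31 ± 0.19 in DM against CM (adjusted p = 0.296) and -0.78 ± 0.19 in DM+Met against DM (adjusted p = 0.257, unadjusted p = 0.00225). Tap1 was at 7.96 and 7.88 in CM and 6.92 and 6.75 in DM, with DM+Met at 7.47 and 7.37. The Psmb9 call in DM+Met was kept in 11 of 15 alternatives. Unlike that of Psmb9, the lowest medium of Tap1 was DM, with a change of -1.09 ± 0.16 (limma, adjusted p = 0.0024) there and of -0.50 ± 0.16 in DM+Met (adjusted p = 0.0633).

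Psmb8 was at 8.71 and 8.50 in CM and 8.04 and 8.40 in DM, with DM+Met at 8.58 and 8.36. The DM libraries lay below both CM libraries and DM+Met overlapped CM, but no change passed (-0.39 ± 0.17 in DM, limma, adjusted p = 0.149, and -0.14 ± 0.17 in DM+Met, adjusted p = 0.641; the latter was 0.26 on library totals, below the median of all rows). Psmb10, at chr8:105935735-105938444 on the - strand, was at 5.04 and 5.42 in CM and 4.76 and 5.67 in DM, with DM+Met at 5.95 and 5.96. DM+Met was highest without overlap, and DM spanned the CM values. The change was -0.01 ± 0.32 in DM (limma, adjusted p = 0.984), where the sign turned with scaling or with the library left out, and 0.72 ± 0.32 in DM+Met (adjusted p = 0.159). The last 500 bases of Psmb8 and Psmb10 overlap the genes Gm20496 and Gm16156, each on the opposite strand. In all, 6 members had such an overlap.

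Psme1 encodes PA28 alpha and lies at chr14:55578123-55581529 on the + strand. It was at 8.30 and 8.24 in CM and 7.44 and 7.48 in DM, with DM+Met at 8.14 and 8.02. DM was lowest by a wide margin, and DM+Met lay just below CM. The limma change was -0.81 ± 0.15 in DM (adjusted p = 0.00591), -0.19 ± 0.15 in DM+Met against CM (adjusted p = 0.429), and 0.62 ± 0.15 in DM+Met against DM (adjusted p = 0.241). The 3′ end of Psme1 overlaps that of Emc9 on the opposite strand, whose row had 586 to 1352 reads and changes of -0.73 ± 0.23 in DM (limma, adjusted p = 0.0594) and 0.02 ± 0.23 in DM+Met.

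Psme2 encodes PA28 beta and lies near Psme1 at chr14:55587441-55591113 on the - strand. Its row was at 6.14 and 6.28 in CM and 6.16 and 6.24 in DM, with DM+Met at 6.92 and 6.55. DM lay between the CM values and DM+Met above them. The changes were -0.01 ± 0.20 in DM (limma, adjusted p = 0.982) and 0.52 ± 0.20 in DM+Met (adjusted p = 0.116). These values are uncertain, since the last 300 bases of Psme2 share runs of 50 bases with Psme2b, a near-identical copy gene at chr11:48945354-48946190, whose row held 1388 to 2692 reads. Psme2 held 26.5% to 34.7% of the reads of both rows, and for their sum the change was 0.02 in DM and 0.36 in DM+Met. Only 2 other members, Psmb11 and Psmd9, shared such runs with deposited rows, and each did so with many of them. With any annotated gene, deposited or not, 14 members shared such a run, the called members Psme1, Psmb1 and Psmd2 among them.

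Set against its constitutive counterpart within a library, each catalytic immunoproteasome gene held a different share. Psmb8 held 80.8% and 77.3% of the reads of Psmb8 and Psmb5 in CM and 76.1% and 83.8% in DM, with DM+Met at 83.6% and 81.5%. Both DM+Met libraries lay above both CM libraries, while the DM libraries spanned all others. Psmb8 was the larger of the pair everywhere. Psmb9 held 55.6% and 56.3% of the reads of Psmb9 and Psmb6 in CM and 56.9% and 74.8% in DM, with DM+Met at 43.6% and 51.9%. DM+Met was lowest without overlap, and the DM libraries differed from each other by more than DM+Met from CM. Psmb10 held 27.8% and 27.7% of the reads of Psmb10 and Psmb7 in CM and 44.4% and 51.0% in DM, with DM+Met at 41.4% and 52.1%. Both dialyzed media lay above CM without overlap, with 95% Wilson intervals of 25.1% to 30.6% in CM library 1 and 39.1% to 43.7% in the lowest of the other libraries, DM+Met library 1. The log2 difference of Psmb10 and Psmb7 was -1.36 ± 0.01 for CM, -0.13 ± 0.26 for DM and -0.19 ± 0.44 for DM+Met (SD, n = 2). Such intervals cover counting error only, and the smallest p of 0.33 of the exact permutation test applies here too.

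**Figure D3:**
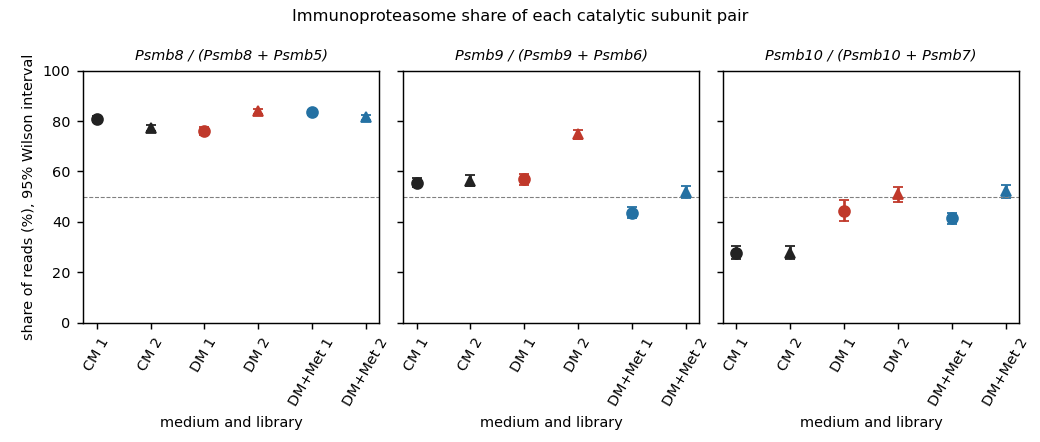
Share of reads held by the immunoproteasome gene of each catalytic pair in each library, in percent, with 95% Wilson intervals and a dashed line at 50%. Circles are library 1 and triangles library 2, with CM black, DM red and DM+Met blue. Psmb10 stands at 27.7% to 27.8% in CM and at 41.4% to 52.1% in the other 4 libraries, while Psmb8 stays at 76.1% to 83.8% throughout.

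The 6 ATPases of the regulatory particle, which form the unfolding ring, split. Psmc6 was at 7.39 and 7.46 in CM and 6.04 and 6.23 in DM, with DM+Met at 6.14 and 5.84. Both CM libraries were more than 1 unit above every other library. Its limma change was -1.29 ± 0.20 in DM (adjusted p = 0.00268), the most negative of all members, and -1.43 ± 0.20 in DM+Met (adjusted p = 0.00134), so that the level in DM was 0.408 times and that in DM+Met 0.371 times the level in CM. It was the single member that passed in DM under all 15 alternatives tried, and in DM+Met it missed the threshold in 1, without DM+Met library 2 (adjusted p = 0.0567). The gene lies at chr14:45329788-45349705 on the + strand. The other 5 ATPase genes had changes of -0.29 to 0.33 in DM and -0.49 to 0.57 in DM+Met, and none passed. Psmc1 lay above CM in both media, with 0.33 ± 0.18 in DM (limma, adjusted p = 0.236) and 0.50 ± 0.18 in DM+Met (adjusted p = 0.0884).

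Among the 11 Psmd subunits of the regulatory particle, 4 were lower in DM and 3 of these also in DM+Met. Of all rows, 9.07% and 8.36% were lower. The median change of the class was -0.77 in DM and -0.53 in DM+Met. Psmd8 was at 8.10 and 8.03 in CM and 7.11 and 7.01 in DM, with DM+Met at 6.80 and 6.75. The 3 media were in separate order, and the limma change was -1.01 ± 0.16 in DM (adjusted p = 0.00317) and -1.29 ± 0.16 in DM+Met (adjusted p = 0.000746), the latter past the threshold in all 15 alternatives. Psmd4, the most abundant member of the class in CM, was at 8.52 and 8.90 in CM and 7.87 and 7.39 in DM, with DM+Met at 7.90 and 8.16. CM was highest and DM lowest, with changes of -1.08 ± 0.20 in DM (limma, adjusted p = 0.00717) and -0.68 ± 0.20 in DM+Met (adjusted p = 0.0498). The latter kept its call in 4 of 15 alternatives.

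Psmd14 was at 6.79 and 6.63 in CM and 5.56 and 5.89 in DM, with DM+Met at 5.97 and 5.76. The dialyzed media overlapped each other below CM, and the limma change was -0.99 ± 0.22 in DM (adjusted p = 0.0142) and -0.85 ± 0.22 in DM+Met (adjusted p = 0.0278). Psmd2, the scaffold subunit Rpn1, was at 7.65 and 7.68 in CM and 6.96 and 6.78 in DM, with DM+Met at 7.08 and 7.19. Again DM was lowest and CM highest, with -0.80 ± 0.16 in DM (limma, adjusted p = 0.0108) and -0.53 ± 0.16 in DM+Met (adjusted p = 0.0558). Of the other 7 Psmd genes, 5 had negative changes in both media, Psmd7 stood at -0.04 in DM and 0.06 in DM+Met, and Psmd6 had positive changes of 0.74 ± 0.40 in DM (limma, adjusted p = 0.236) and 0.37 ± 0.40 in DM+Met (adjusted p = 0.593), with its CM libraries at 4.04 and 5.34.

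Among the assembly chaperones and Psme3, Psme4 and Psmf1, no gene passed in any comparison by limma or limma-voom, and unadjusted p-values under 0.05 fell on 1 chaperone in DM and, among the other activators and inhibitors, on 1 gene in each comparison. Psme4, the nuclear activator PA200, was at 5.75 and 6.05 in CM and 5.92 and 6.54 in DM, with DM+Met at 5.53 and 5.03. DM+Met was lowest, and its change against DM was -0.95 ± 0.28 (limma, adjusted p = 0.348). The inhibitor gene Psmf1 was at 5.24 and 5.48 in CM and at 4.49 to 4.88 in the other 4 libraries, with a change of -0.68 ± 0.29 in DM (limma, adjusted p = 0.135) and -0.66 ± 0.29 in DM+Met (adjusted p = 0.157). Of the 7 assembly chaperones, 4 had negative (47.2% of all rows) and 3 positive changes in DM. Their median was -0.25 in DM and 0.20 in DM+Met. By the mean over all 6 libraries the most abundant chaperone was Psmg3, although Psmg4 was higher in CM and DM+Met, and the least abundant was Psmd9, although Psmg2 and Psmg1 were lower in DM+Met. Psmg3 was at 4.92 to 5.53 in CM, 5.09 to 5.94 in DM and 5.47 to 5.50 in DM+Met, and Psmd9 at 3.87 to 3.95, 3.27 to 3.64 and 4.29 to 4.30. The fitted changes of the chaperones had standard errors of 0.25 to 0.58, against 0.14 to 0.15 for Psmb1, Psma7 and Psme1.

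The third comparison, DM+Met against DM, asks what methionine added to DM changed, and shares the DM libraries with the first. No member passed (0 of 47, lowest adjusted p = 0.241 by limma), against 7 of all 12770 rows, or 0.0548%. At an unadjusted p under 0.05 there were 6 members, against 1238 of the 12770 rows. By limma-voom on the recovered reads 0 passed. With library totals limma called 1, Psme1, at 0.98 (adjusted p = 0.0322). On that scale 0.399% of all rows were called higher and the median of all rows was 0.34. Of the 47 members, 33 had positive and 14 negative changes, against 6486 and 6261 of the 12770 rows. Both DM+Met libraries lay above both DM libraries for 17 members, or 36.2%, against 20.4% of all rows, and below for 7, or 14.9%, against 20.6%. The median change was 0.13 over the constitutive subunits and 0.53 over the immunoproteasome genes, against 0.01 over all rows. Without DM library 2 the constitutive median was -0.02, and without DM library 1 the immunoproteasome median was 0.28.

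The fitted changes between DM+Met and DM were largest on the positive side for Psmd9 (0.84 ± 0.39), whose 3′ sequence is shared with many rows, Psmb7 (0.80 ± 0.29), Psmb10 (0.74 ± 0.32) and Psme1 (0.62 ± 0.15). With 1 library left out they ran from 0.28 (without DM library 1) to 1.19 (without DM library 2) for Psmb10, from 0.49 (without DM+Met library 1) to 1.11 (without DM+Met library 2) for Psmb7, from 0.66 to 1.02 for Psmd9 and from 0.56 to 0.68 for Psme1. On the negative side they were largest for Psme4 (-0.95 ± 0.28), Psmb9 (-0.78 ± 0.19) and Psma5 (-0.71 ± 0.39), with ranges of -1.26 to -0.64 for Psme4, -0.90 to -0.67 for Psmb9 and -1.03 (without DM+Met library 1) to -0.40 (without DM+Met library 2) for Psma5. Of the members lower in both media, Psmc6, Psmd8 and Psma2 stood at -0.14 ± 0.20, -0.28 ± 0.16 and -0.24 ± 0.18. Their fitted levels were no nearer to CM in DM+Met than in DM. The others, Psmd4 and Psmd14, stood at 0.40 ± 0.20 and 0.14 ± 0.22, with fitted levels nearer to CM in DM+Met. None of these changes passed.

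Partners of the proteasome outside the symbol rule were described from a list of 26 genes, all tested. In DM 6 were lower, or 23.1% against 9.07% of all rows, and 1 was higher (7.8% of all rows). In DM+Met against CM 4 were lower, or 15.4% against 8.36% of all rows, and 1 was higher (6.92% of all rows). In DM+Met against DM 0 passed, with 5 at an unadjusted p under 0.05 (1238 of all 12770 rows) and 0 by limma-voom. Nfe2l1, the transcription factor that drives proteasome genes when proteasome activity is short, was at 5.25 and 5.07 in CM and 6.61 and 6.55 in DM, with DM+Met at 6.51 and 6.50. It was the gene of the list that was higher, with a log2 change of 1.42 ± 0.20 in DM (limma, adjusted p = 0.00199) and 1.35 ± 0.20 in DM+Met (adjusted p = 0.00206). Pomp, the maturation factor of the core, was at 7.93 and 7.82 in CM and 6.09 and 6.51 in DM, with DM+Met at 6.61 and 6.20. Both dialyzed media lay more than 1 unit below CM, with changes of -1.58 ± 0.21 (limma, adjusted p = 0.00165) and -1.47 ± 0.21 (adjusted p = 0.00178).

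Rad23b, a shuttle that carries ubiquitylated proteins to the proteasome, was lower at -1.47 ± 0.18 in DM (limma, adjusted p = 0.00109) and -0.95 ± 0.18 in DM+Met (adjusted p = 0.00709). Txnl1, a thioredoxin-like protein bound to the regulatory particle, was lower at -0.76 ± 0.19 and -1.07 ± 0.19 (limma, adjusted p = 0.0245 and 0.00529). Rps27a, a ubiquitin and ribosomal protein fusion gene, was lower at -0.80 ± 0.18 and -1.42 ± 0.18 (limma, adjusted p = 0.0168 and 0.001). Uba1, the main ubiquitin-activating enzyme, was at 8.58 and 8.61 in CM and 7.79 and 7.77 in DM, with DM+Met at 8.68 and 8.49. It was lower in DM at -0.81 ± 0.14 (limma, adjusted p = 0.00522) and stood at -0.01 ± 0.14 in DM+Met against CM, and the difference of 0.80 ± 0.14 between DM+Met and DM did not pass (adjusted p = 0.156). The regulatory-particle subunits Adrm1 and Sem1 (listed as Shfm1), whose symbols fall outside the rule, had changes of -0.06 ± 0.23 and -0.32 ± 0.16 in DM, none of which passed, nor did 0.01 ± 0.23 and -0.37 ± 0.16 for DM+Met.

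Of 18 genes for class I peptide supply and interferon factors, 3 were higher (7.8% of all rows) and 4 lower in DM (22.2%, against 9.07% of all rows), and 5 were higher (6.92% of all rows) and 1 lower in DM+Met against CM (5.56%, below the 8.36% of all rows). In DM+Met against DM 0 passed by limma and 4 were under an unadjusted p of 0.05 (1238 of all 12770 rows). There, limma-voom called 1, B2m, the light chain of class I. Its level was 12.77 and 12.72 in DM+Met against 12.16 and 11.74 in DM (0.80 ± 0.17 and adjusted p = 0.193 by limma). B2m was also 1 of the 5 genes higher in DM+Met against CM, at 0.62 ± 0.17 (limma, adjusted p = 0.0333). Irf8, an interferon regulatory factor, was lower at -1.89 ± 0.20 in DM and -2.26 ± 0.20 in DM+Met (limma, adjusted p = 0.000457 and 0.000149). Irf9, a subunit of the factor that acts on interferon-stimulated response elements, was higher at 0.85 ± 0.21 and 1.45 ± 0.21 (limma, adjusted p = 0.0236 and 0.00176). Ifngr1, a chain of the interferon gamma receptor, was higher at 0.91 ± 0.17 and 1.26 ± 0.17 (limma, adjusted p = 0.00707 and 0.00125). Tapbp, which loads peptides on class I, was higher in DM+Met at 0.86 ± 0.19 (limma, adjusted p = 0.0147) and stood at 0.53 ± 0.19 in DM (adjusted p = 0.0851). Reads of Ifng itself numbered 79 and 148 in the CM libraries, 1 and 24 in the DM libraries, and 32 and 45 with methionine, a change of -2.93 ± 0.67 in DM (limma, adjusted p = 0.0176) and -1.75 ± 0.67 in DM+Met (adjusted p = 0.111).

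**Figure D4:**
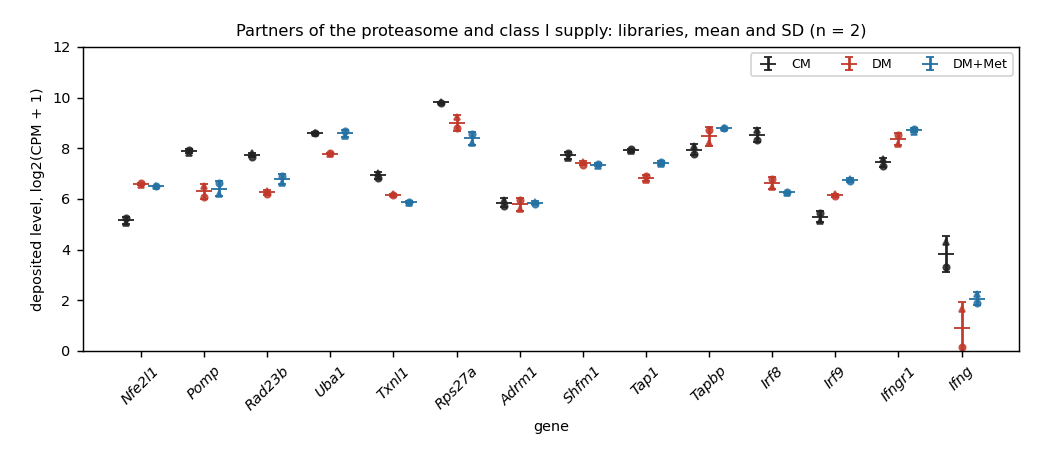
Level of 14 genes that act with the proteasome or in class I supply and interferon signalling, on the deposited log2(CPM + 1) scale. Points are libraries (circles library 1, triangles library 2) and bars the mean and SD of 2 libraries, with CM black, DM red and DM+Met blue. Nfe2l1 lies above CM in both dialyzed media and Pomp below, while Tap1 and Uba1 are lowest in DM.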

How the data were processed

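Members and gene lists were chosen with earlier results of these data known. Per the labels, the authors made 3′ tag libraries (Lexogen QuantSeq) from 500 ng of total RNA, and the submitters' processing notes name Bowtie2, bedtools and the build mm10; the annotation, versions and use of strand are not given in the sources used here. The deposited values are log2(CPM + 1) per gene with TMM scaling. Whole reads were recovered from the CPM steps (at least 99.8% of values up to 300 reads within 0.1 of a whole number), which gave the depth. In R 4.3.3, limma 3.58.1 with an intensity trend was fitted to the log2 values of all 6 libraries for the 12770 of 23282 rows with at least 0.946 CPM in 2 libraries and 15 reads in all, two-sided, with Benjamini-Hochberg adjustment at 0.05. The limma fit was tested on simulated data. Named genes were the 5 immunoproteasome genes, Psmb5 to Psmb7, every called member, the most and least abundant member of roles without calls, and up to 6 called genes per related list with Pomp, Nfe2l1, Adrm1 and Sem1. Psmc1, Psmd6, Psmd7, Nek6, Emc9, Psme2b and B2m were named after their values were seen. Gene positions are from GENCODE M21 (GRCm38, the build mm10). Alternatives were other scalings, filters and pseudocounts, limma-voom, a replicate block, separate media and each library left out.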

Additional observations from a re-analysis of the deposited data

How the results depend on the processing

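Of the alternative values for single named members, 475 kept direction and side of the threshold, 90 kept the direction but no longer passed, 6 passed only under the alternative, and 14 changed sign. Members lower in DM numbered 11; without the intensity trend 1, with the 2 media alone 4, and 2 to 6 with 1 library left out. For DM+Met against CM the 7 became 2 without the trend and 1 to 3 with 1 library left out; for DM+Met against DM, library totals called 1. The constitutive median moved to -0.40 in DM on totals without Rn45s (median of all rows 0.21). In DM+Met against CM it moved to -0.089 on totals, -0.36 on totals without Rn45s and -0.50 with median-of-ratios factors, and ran from -0.55 to -0.35 with 1 library left out. Against DM it moved to 0.49 on totals and ran from -0.0245 to 0.199; the immunoproteasome median moved to 0.89 on totals and ran from 0.281 to 0.679, and in DM+Met against CM to 0.26 on totals. The Psmb10 and Psmb7 difference in CM was -1.38 and -1.27 with pseudocounts of 0.1 and 5. The sign turned for Psmb10 in DM at 0.016 (totals), 0.14 (totals without Rn45s), 0.019 (limma-voom), 0.18 (without CM library 2) and 0.44 (without DM library 1), with a range of -0.47 to 0.44 when 1 library was left out, and for Psme2 in DM at 0.020, 0.15, 0.063 and 0.031 (totals, totals without Rn45s, without CM library 2 and without DM library 1) and at 0.025 summed with Psme2b, an alternative chosen after seeing the data; its values with 1 library left out ran from -0.082 to 0.063. In DM+Met against DM it turned for Psmb5 at -0.0042 (totals without Rn45s) and -0.14 and for Psmb6 at -0.26 (both without DM library 2, with highest values of 0.20 and 0.90 when another was left out), and in DM+Met against CM on totals for Psmb8 at 0.26 and Psme1 at 0.21. The cause was not tested. Deviations of same-numbered libraries did not correlate (r -0.03 to 0.00). With 2 libraries per medium this cannot decide whether the numbers pair them. With a replicate block, 11 members were lower in DM against CM (10 shared, with Psmb6 gained and Psma7 lost). There were 6 lower in DM+Met against CM, and 0 passed between the dialyzed media. Depth limits Psmb11, at 7 to 23 reads, most among the tested members.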
